A study of Mus musculus with 7 samples.

Results

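Proteasome genes are described here in ribosome-bound RNA of cholinergic neurons, taken from the ventral striatum of mice. Members were the rows of the expression table whose symbol begins with Psma, Psmb, Psmc, Psmd, Psme, Psmf or Psmg followed by a digit, without the immunoproteasome genes Psmb8, Psmb9 and Psmb10. The rule gave 43 genes among 22016 rows, 15 of them core genes (Psma, Psmb) and 19 regulatory genes (Psmc, Psmd). Psmc3ip also matched it, but it encodes a meiotic recombination factor and not a proteasome subunit. Psma7, Psmd4 and Psmg4 were not analysed here.

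The series holds 7 libraries made by translating ribosome affinity purification, in which 1 cell type carries a tagged ribosomal protein and its ribosomes are pulled down together with bound RNA. The 4 KO libraries came from mice with the ChAT bacTRAP transgene, p11 fl/fl alleles and ChAT Cre, and the 3 WT libraries from littermates with the transgene and the floxed alleles but without Cre. Each library pooled 6 ventral striata of 3 untreated mice. The mice were C57/Bl6N, of both sexes and 8 to 12 weeks old. The comparison asks how RNA on the ribosomes of cholinergic cells differs when p11, encoded by S100a10, is deleted from them. Both the tag and Cre are tied to ChAT, the acetylcholine-producing enzyme. All KO and no WT mice carried Cre, and what Cre does by itself cannot be told apart from the deletion.

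The proteasome degrades proteins that are marked with chains of ubiquitin. Its core particle is a barrel of stacked rings, with alpha subunits forming the gated outer rings and beta subunits, some of them proteolytic, forming the inner rings. The regulatory particle binds ubiquitin chains, removes them, and unfolds the substrate with a ring of ATPases before it enters the core. In neurons the proteasome takes part in the turnover of synaptic proteins.

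S100a10 stood at 127.1, 138.8, 189.8 and 89.2 FPKM (fragments scaled to transcript length and library size) in KO1 to KO4, against 329.5, 332.7 and 387.5 FPKM in WT1 to WT3. The labelled genotypes and the targeted gene therefore went together in all 7 libraries. The 10 measured markers of cholinergic neurons summed to between 1313.4 and 1483.0 FPKM in KO and between 1614.6 and 1753.6 FPKM in WT. Slc18a3 had the widest gap, with means of 322 FPKM in KO and 543 FPKM in WT. Lhx8 (208 against 174 FPKM), Slc5a7 (199 against 193 FPKM) and Gbx2 (17.5 against 16.8 FPKM) averaged higher in KO, and the other cholinergic markers lower. The 6 measured markers of medium spiny neurons summed to 273.3 FPKM in KO1, to between 79.9 and 111.0 FPKM in the other KO libraries, and to between 69.2 and 94.8 FPKM in WT. Markers of other interneurons (95.5 FPKM), astrocytes (40.5 FPKM) and oligodendrocytes (76.5 FPKM) also had their highest sums in KO1. KO1 thus stands apart from the other libraries, and values without it are given beside many of the results it moved. The test described next was passed by 0 of these markers, but only 1 of 6 astrocyte and 5 of 7 other-interneuron markers could be tested. An unadjusted p under 0.05 was reached by 3 of the 10 cholinergic markers and 1 other-interneuron marker, against 18.8% of all tested rows. Microglial markers summed to at most 1.1 FPKM in KO and 1.9 FPKM in WT, and endothelial markers to at most 4.0 FPKM in KO and 2.4 FPKM in WT. The part of these cells in the values below was not tested. In bulk RNA, fewer cells of a type and less RNA per cell cannot be told apart.

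None of the 40 proteasome members that could be tested passed between KO and WT. The test was limma on log2(FPKM + 1) over the 10089 rows that averaged 1 FPKM or more, with Benjamini-Hochberg adjustment and a threshold of 0.05, and 1.74% of all tested rows passed it. In simulated rows it recovered 11.3% of 1.5-fold and 58% of 2-fold changes, so small changes can be missed. S100a10 fell to 38.9% of its WT mean and passed (log2 difference -1.40, SE 0.22, limma adjusted p = 0.0098). At an unadjusted limma p under 0.05 there were 6 members, 15% of those tested, where 18.8% of all tested rows reached that level. Of these members 5 were higher in KO (10.1% of all tested rows) and Psmd3 was lower (8.69%). KO and WT values did not overlap in 4 members, 10% of those tested, against 17.4% of all tested rows. KO was the higher in Psma1, Psma3 and Psmd6 (9.11% of all tested rows) and the lower in Psmd3 (8.29%). Both shares were thus near or below the background. The log2 difference was positive in 23 of the 40 members and in 53.4% of all tested rows. The median log2 difference (KO minus WT) was 0.07 over the members and 0.03 over all tested rows. Replicates were pools of mice, so these p-values measured the spread between pools. The expression table names its columns by number, 210 to 222 for KO and 83 to 113 for WT, and whatever these numbers stand for cannot be told apart from genotype.

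**Figure D1:**
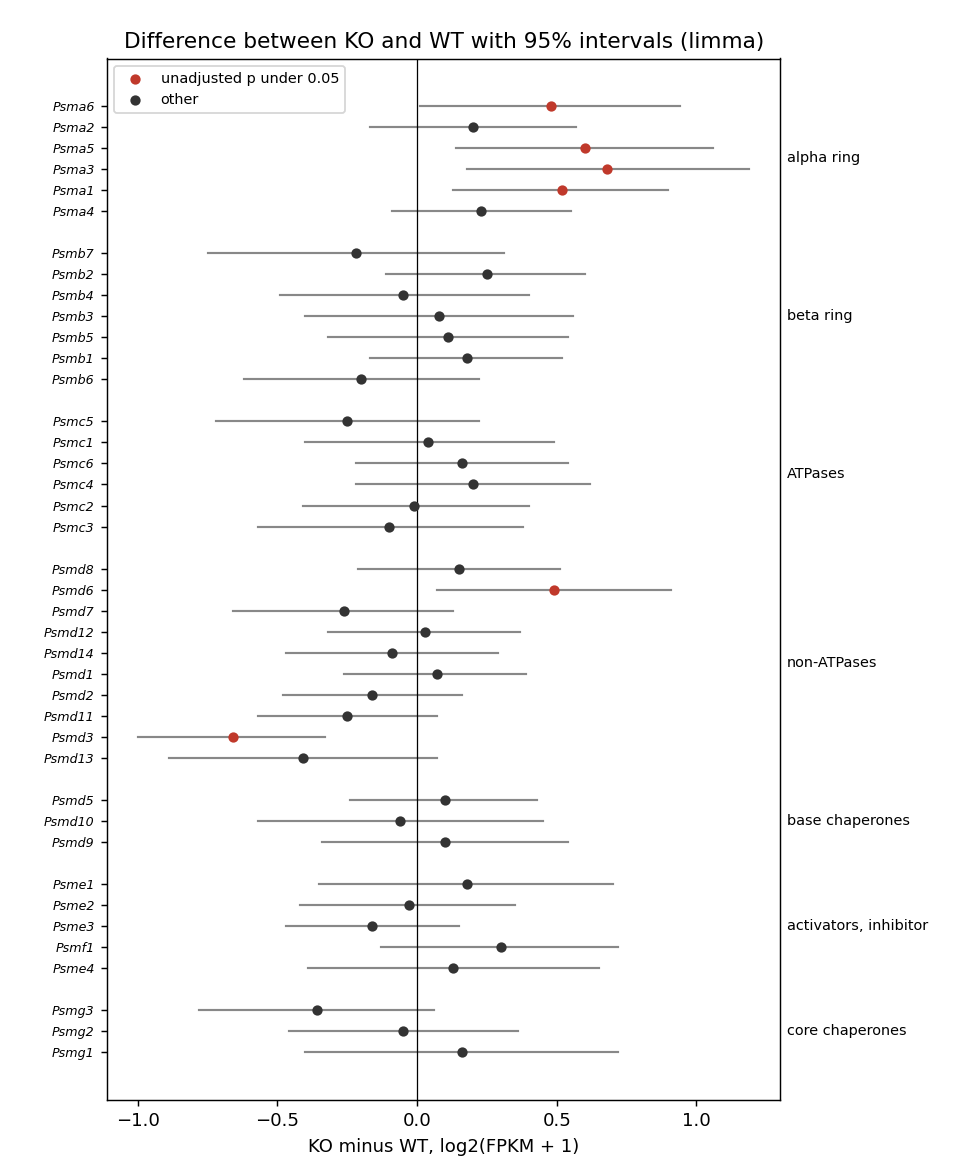
Difference between KO and WT of each tested proteasome gene (x axis, log2(FPKM + 1) in KO minus that in WT; point, limma estimate; line, 95% confidence interval), grouped by role. The 6 alpha-ring genes all lie above 0, between 0.20 and 0.68, whereas the beta-ring genes lie on both sides of 0, between -0.22 and 0.25.

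The 3 members under the filter on low values were Psma8, Psmb11 and Psmc3ip. Psma8, an alpha subunit known from the testis, was listed at 0.0 FPKM in the 4 KO libraries and at 0.1, 0.0 and 0.0 FPKM in WT1 to WT3. Psmb11, a beta subunit known from thymic epithelium, was listed at 0.0 FPKM in all 7 libraries. Psmc3ip stood at 0.7, 1.1, 1.0 and 0.8 FPKM in KO1 to KO4 and at 0.0, 1.1 and 1.1 FPKM in WT1 to WT3.

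**Figure D2:**
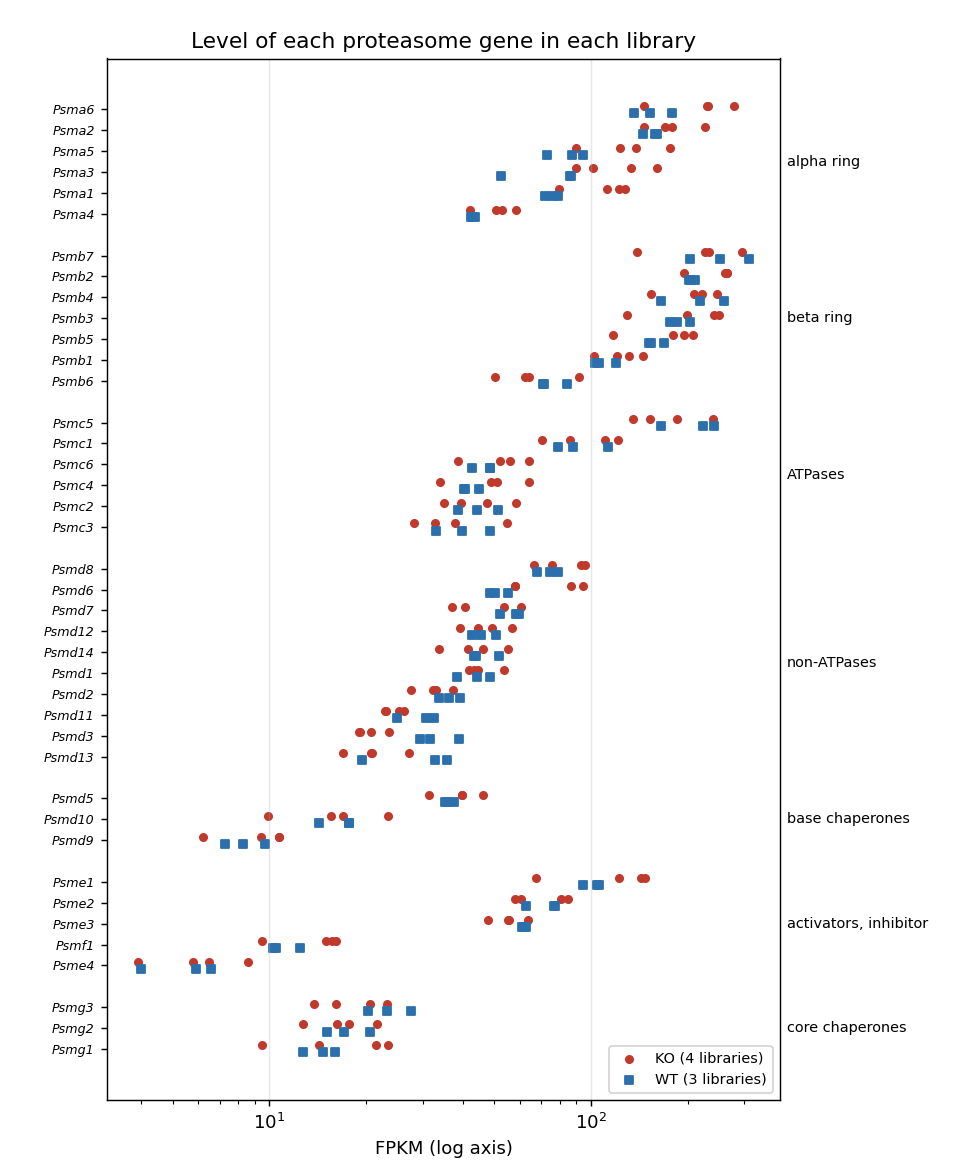
FPKM of each tested proteasome gene in each library (x axis, log scale; red circles, 4 KO libraries; blue squares, 3 WT libraries), grouped by role and ordered by mean level. Core genes range from 42.0 to 311.2 FPKM and overlap regulatory genes such as Psmc5 (135.2 to 241.2 FPKM). Psme4 and the chaperone Psmd9 lie lowest.

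Core genes were the more abundant on a per-length scale. The median over the 13 tested core genes was 175 FPKM in KO and 155 FPKM in WT, and over the 19 regulatory genes it was 45.1 FPKM in KO and 43.7 FPKM in WT. Within a library the core median was 3.16, 3.86, 3.77 and 4.33 times the regulatory median in KO1 to KO4, and 3.55, 3.30 and 3.35 times in WT1 to WT3. The ratios of the genotypes overlap, since KO1 had the lowest ratio of all 7 libraries. Core subunits, which the particle holds in equal numbers, differed several-fold in RNA, from Psma4 at 50.9 ± 6.77 FPKM in KO (SD, n = 4) and 42.9 ± 0.681 FPKM in WT (SD, n = 3) the lowest in both groups, to Psmb2 at 247 ± 34.3 FPKM in KO and Psmb7 at 255 ± 54.3 FPKM in WT.

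Promoter sequences of core genes are shown here because alpha-ring genes made up 4 of the 6 members at an unadjusted limma p under 0.05. RefSeq promoter windows of GRCm38.p6 (300 bases, 250 of them before the gene start) were at hand for 35 of the 43 members. Both strands of each window were searched for TGACNNNGC, the antioxidant response element that NRF1 and related factors bind in proteasome promoters, and for CCAAT, the box bound by NF-Y. The 250 bases before the start of the alpha-ring genes Psma1, Psma3 and Psma5, which had the largest differences among core genes, and of the catalytic beta gene Psmb5 are printed 5′ to 3′ on the strand of the gene. Capitals mark either motif, on either strand.
Psma1, chr7:114276117-114276366, minus strand: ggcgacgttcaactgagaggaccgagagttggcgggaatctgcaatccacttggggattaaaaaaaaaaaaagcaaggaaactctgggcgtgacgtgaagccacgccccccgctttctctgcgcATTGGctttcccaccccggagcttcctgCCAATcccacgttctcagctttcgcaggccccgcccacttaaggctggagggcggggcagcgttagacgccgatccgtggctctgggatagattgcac
Psma3, chr12:70974373-70974622, plus strand: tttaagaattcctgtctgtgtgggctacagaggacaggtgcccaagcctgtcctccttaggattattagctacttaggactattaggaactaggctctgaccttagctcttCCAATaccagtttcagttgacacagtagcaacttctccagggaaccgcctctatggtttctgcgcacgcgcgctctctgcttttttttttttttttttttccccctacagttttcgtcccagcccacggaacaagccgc
Psma5, chr3:108256676-108256925, plus strand: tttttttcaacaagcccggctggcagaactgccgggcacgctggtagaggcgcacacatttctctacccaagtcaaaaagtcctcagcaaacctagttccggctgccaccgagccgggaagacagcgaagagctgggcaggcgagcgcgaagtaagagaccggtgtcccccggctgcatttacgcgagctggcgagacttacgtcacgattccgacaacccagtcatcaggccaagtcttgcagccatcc
Psmb5, chr14:54617996-54618245, minus strand: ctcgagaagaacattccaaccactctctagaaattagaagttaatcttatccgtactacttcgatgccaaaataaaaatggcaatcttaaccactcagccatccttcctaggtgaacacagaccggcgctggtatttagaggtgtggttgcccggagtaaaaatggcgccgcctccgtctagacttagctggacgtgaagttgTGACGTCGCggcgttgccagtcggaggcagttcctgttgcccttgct

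The CCAAT box occurred in a window of 4 of the 6 alpha-ring genes (Psma1, Psma2, Psma3 and Psma6, the last at 1 of its 2 starts), 2 of the 5 beta genes (Psmb3 and Psmb11, which was listed at 0.0 FPKM) and 4 of the 16 regulatory genes with a window, and in 41.1% of all 27025 genes. The antioxidant response element occurred in 0 of the 6 alpha-ring genes, 2 of the 5 beta genes and 3 of the 16 regulatory genes, and in 14% of all genes. In Psmb5 it begins 47 bases before the start and in Psmb6 9 bases before it. No printed match of TGACNNNGC overlaps one of CCAAT. A match is a description of letters only.

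The 6 tested alpha-ring genes, whose products form the outer rings of the core, all had a positive log2 difference, with a median of 0.50. Of these, 4 had an unadjusted limma p under 0.05, where 10.1% of all tested rows were higher in KO at that level. In 2 of the 6 the KO values all lay above the WT values, as in 9.11% of all tested rows. With trends in GC content and transcript length removed, 5 of the 6 were positive and 2 had an unadjusted limma p under 0.05. With array weights all 6 reached that level. Of all tested rows, 18.6% and 32.3% reached it in these fits, in either direction. Psma3 stood at 101.6, 133.0, 160.7 and 90.0 FPKM in KO1 to KO4, against 52.4, 86.8 and 86.3 FPKM in WT1 to WT3. The KO values all lay above the WT values, with KO4 close to WT2 and WT3. Psma3 differed by 0.68 on the log2 scale, with a 95% interval of 0.18 to 1.19 (SE 0.23, limma adjusted p = 0.16).

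Psma5 stood at 89.7, 138.1, 176.4 and 123.4 FPKM in KO1 to KO4, against 72.8, 94.5 and 87.5 FPKM in WT1 to WT3 (log2 difference 0.60, SE 0.21, limma adjusted p = 0.17). KO1 fell inside the WT range, and the other 3 KO libraries lay above it. Without KO1 the Psma5 difference was 0.77 and passed (limma adjusted p = 0.03). Of the 31-mers of Psma5, 58.7% also occur in transcripts of other genes, Gm8394 and Gm12989 first among them, and 1700010K24Rik overlaps it on the opposite strand, so its reads are uncertain. The share for Psma3 was 19.5%.

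Psma1 stood at 112.6, 128.0, 122.6 and 79.6 FPKM in KO1 to KO4, against 71.8, 76.3 and 79.1 FPKM in WT1 to WT3. The groups did not overlap, but KO4 lay only just above WT3, and the log2 difference was 0.52 (SE 0.18, limma adjusted p = 0.16). Psma6 stood at 146.2, 229.6, 278.3 and 230.8 FPKM in KO1 to KO4, against 178.8, 152.2 and 135.7 FPKM in WT1 to WT3 (log2 difference 0.48, SE 0.21, limma adjusted p = 0.25). Again KO1 fell inside the WT range, and without it the Psma6 difference was 0.66 and passed (limma adjusted p = 0.034). The remaining alpha genes had smaller differences: Psma2 averaged 180 ± 33.6 FPKM in KO and 155 ± 7.92 FPKM in WT (log2 difference 0.20), and Psma4 had a log2 difference of 0.23. Psma2 turned to -0.05 with trends in GC content and transcript length removed.

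**Figure D3:**
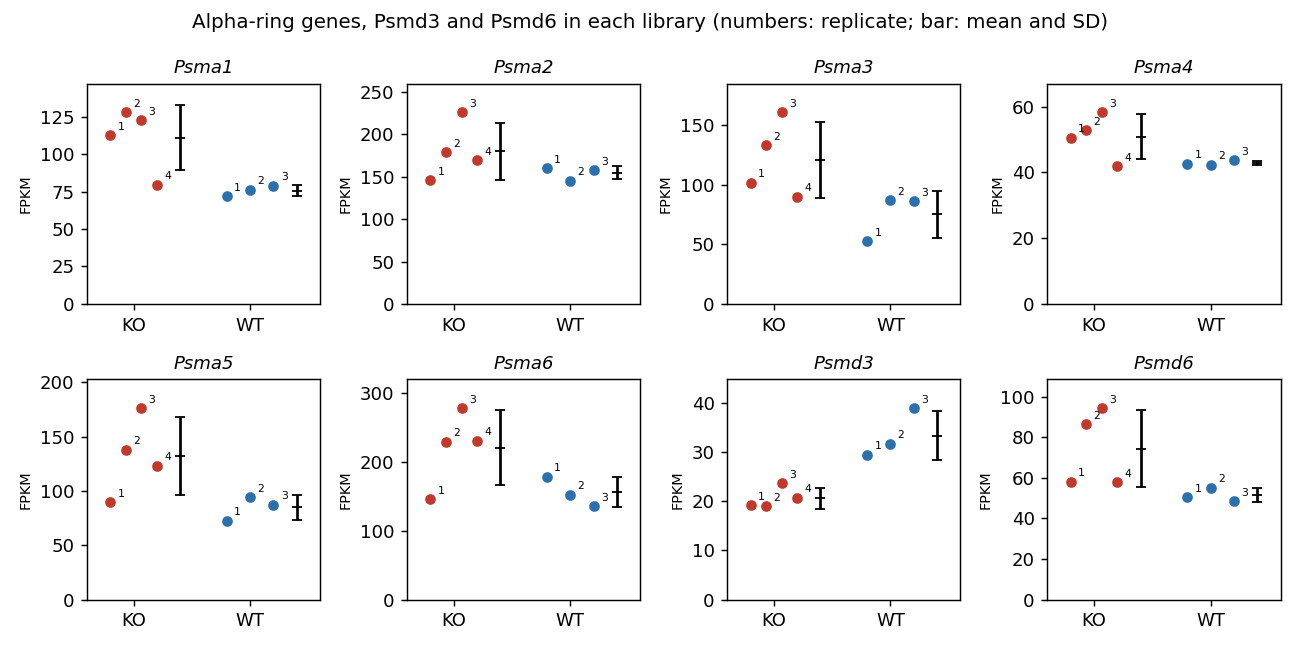
FPKM of the 6 tested alpha-ring genes and of the regulatory genes Psmd3 and Psmd6 in each library (y axis from 0; points numbered by replicate; bar, mean and SD of 4 KO or 3 WT libraries). KO3 is the highest library for Psma2 to Psma6, at 226.0, 160.7, 58.3, 176.4 and 278.3 FPKM, and Psmd3 is lower in all KO libraries than in any WT library.

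The 7 tested beta-ring genes gave 0 calls with limma and 0 at an unadjusted p under 0.05, and their median log2 difference was 0.08. Among the catalytic subunits, Psmb5, with chymotrypsin-like activity, averaged 175 ± 40.1 FPKM in KO (SD, n = 4) and 158 ± 9.4 FPKM in WT (SD, n = 3). Psmb6, with caspase-like activity, averaged 67.3 ± 17.6 FPKM in KO and 75.7 ± 7.6 FPKM in WT. Psmb7, with trypsin-like activity, stood at 139.3, 233.0, 295.0 and 225.8 FPKM in KO1 to KO4, against 311.2, 252.4 and 202.8 FPKM in WT1 to WT3. Its groups overlapped widely and its log2 difference was the lowest of the ring (-0.22, SE 0.24, limma adjusted p = 0.66), but it was -0.01 without KO1 (adjusted p = 0.98). The 3 catalytic genes thus kept one order in both groups, with Psmb6 lowest, Psmb5 between and Psmb7 highest on the per-length scale.

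The structural beta genes had log2 differences of 0.25 (Psmb2), 0.18 (Psmb1), 0.08 (Psmb3) and -0.05 (Psmb4). Psmb2 stood at 195.3, 261.8, 264.9 and 264.9 FPKM in KO1 to KO4, against 211.2, 204.3 and 202.5 FPKM in WT1 to WT3, so that KO1 alone fell below the WT values. Of the 31-mers of Psmb5 and Psmb3, 71.7% and 21.7% occur in other genes.

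The beta-ring median depended on single KO libraries. Relative to the WT mean it stood at -0.45 in KO1, 0.08 in KO2, 0.36 in KO3 and 0.13 in KO4, and at 0.12, -0.01 and -0.04 in WT1 to WT3 (log2 scale). The alpha-ring median stood at 0.16, 0.64, 0.77 and 0.21 in KO1 to KO4, and at -0.04, 0.00 and 0.04 in WT1 to WT3. Without KO1 the difference between KO and WT had a median of 0.58 over the alpha ring and 0.27 over the beta ring. The beta-ring median was -0.03 without KO3 and -0.01 without KO4, where the alpha-ring median was 0.40 and 0.53. In the KO libraries the alpha ring thus lay above the beta ring each time, and in WT1 it lay below it. With trends in GC content and length removed, the medians were 0.29 for the alpha and 0.00 for the beta ring. The median GC content of the transcripts was 44.5% for the alpha and 52.2% for the beta ring, and the part of base composition in the difference between the rings was not tested further.

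**Figure D4:**
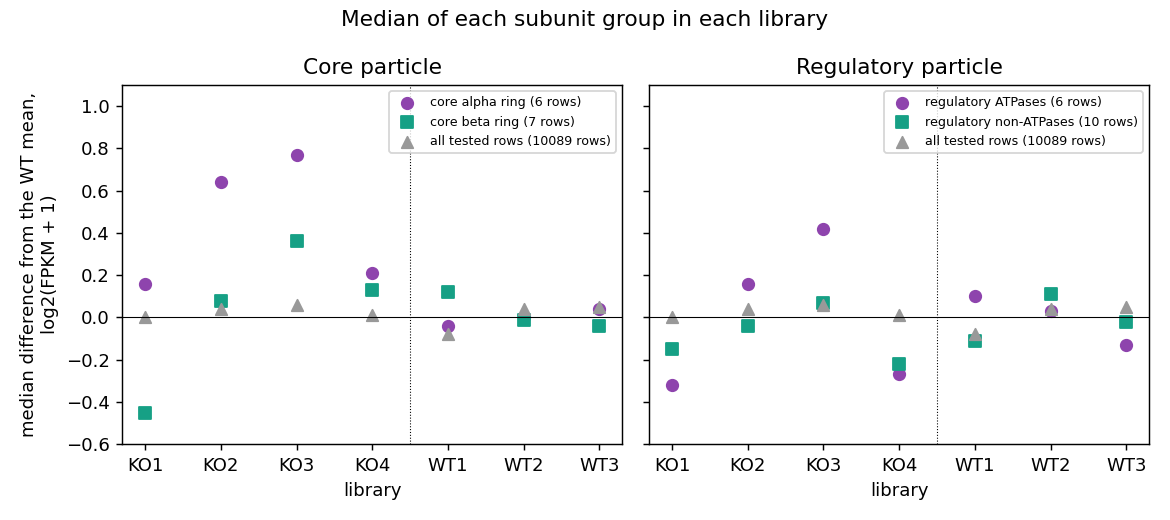
Median over the genes of each group of the difference from the WT mean on the log2(FPKM + 1) scale (y axis), by library (x axis; KO left of the dotted line, WT right of it). The alpha-ring medians of the 4 KO libraries, 0.16 to 0.77, lie above those of the 3 WT libraries, while the beta ring and the ATPases reach from below 0 in KO1 to above 0 in KO3. The WT values are held near 0, since their own mean is the reference.

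The 6 regulatory ATPases, which unfold substrates, gave 0 calls and 0 at an unadjusted limma p under 0.05, with a median of 0.02. Psmc5 was the most abundant at 135.2, 184.9, 240.6 and 152.5 FPKM in KO1 to KO4, against 222.9, 241.2 and 165.7 FPKM in WT1 to WT3. Its values overlapped and its log2 difference was -0.25 (SE 0.21, limma adjusted p = 0.55), the lowest of the ATPases. Psmc4 had the highest, with 49.6 ± 12.4 FPKM in KO and 41.9 ± 2.57 FPKM in WT (0.20, limma adjusted p = 0.60). Psmc3, the least abundant, averaged 38.4 ± 11.7 FPKM in KO and 40.4 ± 7.72 FPKM in WT. Although all 6 products are built into one ring, the level of Psmc5 was several times that of Psmc3 in each library. Without KO1 the log2 difference was -0.13 for Psmc5, 0.37 for Psmc4 and 0.03 for Psmc3, against -0.10 for Psmc3 with it, and none of the 3 passed. Of the 31-mers of Psmc1, 32.2% occur in other genes.

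Of the 10 tested non-ATPase subunits, Psmd3 had the smallest p of all members and Psmd6 lay in the other direction. Psmd3, a scaffold subunit of the lid, stood at 19.2, 19.0, 23.6 and 20.7 FPKM in KO1 to KO4, against 29.4, 31.7 and 38.9 FPKM in WT1 to WT3. The groups did not overlap, and the KO mean was 61.9% of the WT mean. The log2 difference was -0.66 (SE 0.15, limma adjusted p = 0.054), just outside the threshold. It passed in limma when only rows averaging 5 FPKM or more were tested (adjusted p = 0.048). It also passed with median centring (0.044), quantile normalization (0.039), array weights (0.0037) and without KO1 (0.049). With trends in GC content and length removed it did not pass (-0.51, adjusted p = 0.11). Nor did it pass without any other single library (adjusted p = 0.074 to 0.19). Over all alternatives its adjusted p was highest with the replicate block (0.21). Psmd3 lies on chromosome 11 (98682554 to 98695979, plus strand, GRCm38), where Gm12356 overlaps it on the opposite strand, and the handling of strand was not given in the sources used here.

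Psmd6, another lid subunit, stood at 58.2, 86.6, 94.4 and 57.9 FPKM in KO1 to KO4, against 50.4, 55.2 and 48.5 FPKM in WT1 to WT3. KO1 and KO4 lay close above the WT values, and KO2 and KO3 far above them (log2 difference 0.49, SE 0.19, limma adjusted p = 0.20). Psmd13, the least abundant of the group over the 7 libraries, averaged 21.4 ± 4.27 FPKM in KO and 29.3 ± 8.73 FPKM in WT, with WT3 at 19.4 FPKM inside the KO range (-0.41, limma adjusted p = 0.34). Psmd8 was the most abundant, at 82.9 ± 14.1 FPKM in KO and 74 ± 5.5 FPKM in WT (0.15, and 0.25 without KO1). Psmd14, the deubiquitinase of the lid, averaged 44.1 ± 8.97 FPKM in KO and 46.4 ± 4.81 FPKM in WT (-0.09). The large base subunits Psmd1 and Psmd2 had log2 differences of 0.07 and -0.16, and 31.6% of the 31-mers of Psmd2 occur in other genes. The other non-ATPases, Psmd7, Psmd11 and Psmd12, had log2 differences of -0.26, -0.25 and 0.03.

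Psmd5, Psmd9 and Psmd10 are named as regulatory genes but encode chaperones that assemble the base. Psmd5 averaged 39.2 ± 6.07 FPKM in KO and 36.3 ± 1.19 FPKM in WT (0.10). Psmd9 averaged 9.25 ± 2.12 FPKM in KO and 8.43 ± 1.21 FPKM in WT (0.10), and Psmd10 averaged 16.4 ± 5.55 FPKM in KO and 16.6 ± 1.96 FPKM in WT (-0.06). The assembly chaperones of the core had similar low levels, with Psmg1 at 17.1 ± 6.42 FPKM in KO and 14.5 ± 1.66 FPKM in WT, and Psmg3 at 18.5 ± 4.29 FPKM in KO and 23.7 ± 3.72 FPKM in WT. Their log2 differences were 0.16 for Psmg1, -0.05 for Psmg2 and -0.36 for Psmg3 (limma adjusted p = 0.34 for the last). None of these 6 chaperone genes reached an unadjusted limma p under 0.05. Without KO1 the log2 difference was 0.40 for Psmg1, 0.26 for Psmd9, 0.14 for Psmd10, 0.02 for Psmd5 and -0.24 for Psmg3, again with no call.

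The activators of the core, which open its gate without ubiquitin binding, also gave 0 calls and 0 at an unadjusted limma p under 0.05. Psme1, an interferon-inducible activator subunit, stood at 67.5, 122.6, 142.9 and 147.6 FPKM in KO1 to KO4, against 106.3, 104.4 and 94.6 FPKM in WT1 to WT3. KO1 lay below and the other KO libraries above the WT values (log2 difference 0.18, SE 0.24, limma adjusted p = 0.73). Without KO1 the Psme1 difference was 0.43 (limma adjusted p = 0.085). Its partner Psme2 had a log2 difference of -0.03, with 33.5% of its 31-mers in other genes. Psme3, the nuclear activator, averaged 55.6 ± 6.5 FPKM in KO and 61.9 ± 0.862 FPKM in WT (-0.16, and -0.09 without KO1). Psme4, an activator of histone degradation, was the least abundant member tested, at 8.6, 5.8, 6.5 and 3.9 FPKM in KO1 to KO4 and 4.0, 5.9 and 6.6 FPKM in WT1 to WT3 (0.13, and -0.02 without KO1). Psmf1, an inhibitor of the core in vitro, had a log2 difference of 0.30 (limma adjusted p = 0.43), and of 0.46 without KO1 (adjusted p = 0.10).

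Core genes had a median log2 difference of 0.20, with 10 positive and 3 negative values, and regulatory genes one of -0.01, with 9 positive and 10 negative. The difference of the medians was 0.21, which is a description of the lists with no test. Within libraries, relative to the WT mean, the core median exceeded the regulatory median by 0.21, 0.26, 0.12 and 0.34 in KO1 to KO4, and by 0.06, -0.11 and 0.05 in WT1 to WT3. The 4 KO values thus lay above the 3 WT values on this measure, although the core median itself was -0.08 in KO1 and 0.41 in KO3. The reference is the mean of the same 3 WT libraries, which holds the WT values near 0. As ratios of median FPKM the genotypes overlapped, with KO1 at 3.16, below WT1 to WT3 at 3.55, 3.30 and 3.35. The core median was 0.10 without KO3, against 0.29 without KO1. It was also 0.10 with quantile normalization and 0.09 with trends in GC content and length removed. In these 2 fits the regulatory median was -0.04 and -0.11, and the difference of the medians was 0.15 and 0.20. Leaving Psmd5, Psmd9 and Psmd10 out of the regulatory genes gave -0.05 for them and 0.25 for the difference.

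Spread between libraries was described without a test. The coefficient of variation had a median of 22.4% in KO and 11.2% in WT over the 40 members and was the larger in KO for 36 of them. Over all tested rows these medians were 20.3% in KO and 15.8% in WT, and the coefficient was the larger in KO for 6255 of the 10089 rows. The lowest KO value fell in KO1 for 25 members and in KO4 for 13, and the highest fell in KO3 for 31 members. KO3 was thus the highest KO pool for most members and KO1 the lowest. This order was not counted over all tested rows. The FPKM of all rows also added up to the least in KO1 (379417) and the most in KO3 (511328). Relative to the WT mean, the median of all tested rows was 0.00 in KO1 and 0.06 in KO3, against -0.22 and 0.37 for the members. The KO libraries were also compared by transcript length. Members of at most 1561 nucleotides had medians of -0.44, 0.18, 0.40 and 0.01 in KO1 to KO4 relative to the WT mean, and longer members -0.12, 0.09, 0.31 and -0.20. Among all tested rows of at most that length the medians were -0.26, 0.10, 0.26 and 0.12 in KO1 to KO4. Among longer rows they were 0.03, 0.03, 0.02 and -0.01. These medians cover 20 longer members but 8066 longer rows, and the sets were not matched for length. They therefore cannot show whether the members varied more than rows of like length. The 13 core genes had a median length of 1165 nucleotides and the 19 regulatory genes one of 1955, against 3151 over all tested rows. The part of length in the members' values was not tested beyond the fit with its trend removed.

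The immunoproteasome subunits, which replace the catalytic beta subunits in cells exposed to interferon, were set beside their constitutive counterparts. Psmb10, the counterpart of Psmb7, stood at 22.5, 26.0, 34.9 and 26.0 FPKM in KO1 to KO4, against 46.5, 41.8 and 38.5 FPKM in WT1 to WT3. The groups did not overlap, and the log2 difference was -0.62 (SE 0.17, limma adjusted p = 0.085). Psmb8 ran from 0.8 to 2.6 FPKM and Psmb9 from 0.0 to 2.4 FPKM across the libraries (log2 differences 0.40 and 0.04, the second 0.44 without KO1). As a share of Psmb7, a ratio chosen after the values were seen, Psmb10 amounted to 16.2%, 11.2%, 11.8% and 11.5% in KO1 to KO4 and to 14.9%, 16.6% and 19% in WT1 to WT3. The shares overlapped through KO1.

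Further genes of the ubiquitin and proteasome pathway were taken from lists of associated factors. Ubb, a ubiquitin gene, stood at 838.7, 1868.0, 2020.9 and 1741.0 FPKM in KO1 to KO4, against 1256.4, 1258.2 and 1023.4 FPKM in WT1 to WT3 (log2 difference 0.38, SE 0.30, limma adjusted p = 0.51). KO1 lay below and the other KO libraries above the WT values, and without KO1 the Ubb difference was 0.67 and passed (limma adjusted p = 0.034). Rps27a, another ubiquitin gene, had a log2 difference of 0.08 (limma adjusted p = 0.90). The activating enzyme gene Uba1 averaged 49.9 ± 3.25 FPKM in KO (SD, n = 4) and 60.2 ± 8.38 FPKM in WT (SD, n = 3), a log2 difference of -0.26 (limma adjusted p = 0.37).

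Bag6, a chaperone that hands unfolded membrane proteins to the ubiquitin system, fell to 22.3, 23.2, 22.2 and 24.4 FPKM in KO1 to KO4, against 33.2, 36.4 and 36.3 FPKM in WT1 to WT3. The libraries of each group lay close together and the groups far apart (log2 difference -0.60, SE 0.13, limma adjusted p = 0.048). The call was kept without KO1 (adjusted p = 0.036), was lost without each other library (adjusted p = 0.074 to 0.20), and was lost with trends in GC content and length removed (-0.35, adjusted p = 0.16).

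Bag6 belongs to the list of ubiquitin shuttles and unfoldase factors, in which 9 of 10 tested genes had a negative log2 difference, with a median of -0.39. In it 6 of the 10 had an unadjusted limma p under 0.05, 5 of them lower in KO and 1 higher, where 18.8% of all tested rows reached that level, and 5 had KO values all below the WT values, as did 8.29% of all tested rows. Vcp, the unfoldase that extracts ubiquitinated proteins, stood at 30.0, 32.1, 42.0 and 29.3 FPKM in KO1 to KO4, against 51.9, 71.7 and 45.6 FPKM in WT1 to WT3 (-0.73, SE 0.19, limma adjusted p = 0.074). Its groups did not overlap, but 43.9% of its 31-mers occur in other genes, Vcp-rs foremost, and 1700022I11Rik overlaps it on the opposite strand. Ubqln1, a shuttle that carries ubiquitinated proteins to the proteasome, averaged 42.9 ± 3.5 FPKM in KO and 56 ± 4.07 FPKM in WT (-0.38, limma adjusted p = 0.18). Ufd1l, a cofactor of Vcp, was the exception in sign, with 40.1 ± 8.85 FPKM in KO and 28.9 ± 1.61 FPKM in WT (0.43, limma adjusted p = 0.23).

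**Figure D5:**
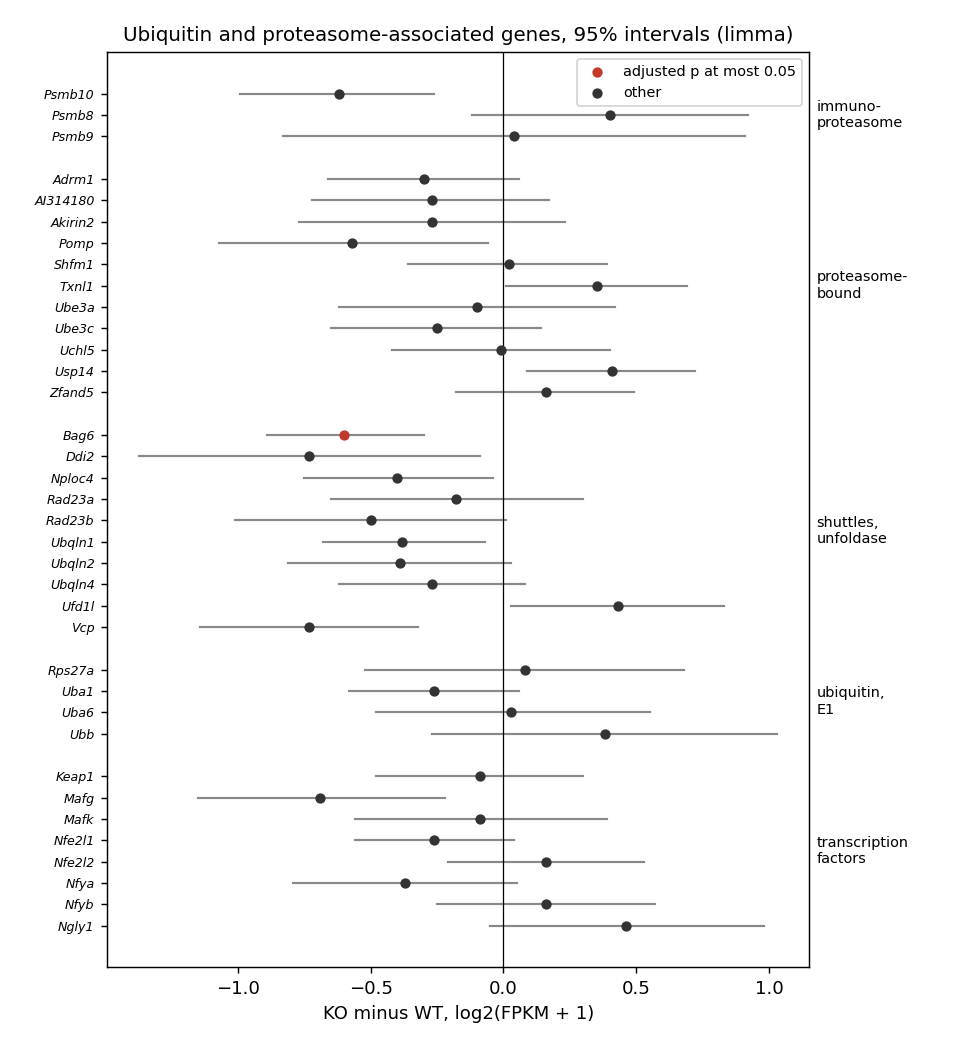
Difference between KO and WT of tested genes of the further lists (x axis, log2(FPKM + 1) in KO minus that in WT; point, limma estimate; line, 95% confidence interval). Bag6 at -0.60 passed the adjusted threshold, and 9 of the 10 shuttle and unfoldase genes lie below 0.

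Proteins that bind the proteasome or help to assemble it gave 0 calls among 11 tested genes, with a median of -0.10 and 3 at an unadjusted limma p under 0.05 (27.3%, against 18.8% of all tested rows). Usp14, a deubiquitinase of the regulatory particle, stood at 60.3, 64.1, 59.8 and 54.4 FPKM in KO1 to KO4, against 38.6, 49.4 and 46.5 FPKM in WT1 to WT3. Its groups did not overlap (log2 difference 0.41, SE 0.14, limma adjusted p = 0.16). Pomp, a maturation factor of the core, averaged 324 ± 103 FPKM in KO and 468 ± 68.3 FPKM in WT, with KO3 at 472.2 FPKM inside the WT range (-0.57, limma adjusted p = 0.21). Txnl1, a thioredoxin-like protein of the regulatory particle, had a log2 difference of 0.35 (limma adjusted p = 0.25). The ubiquitin receptor gene Adrm1 and the deubiquitinase gene Uchl5 had log2 differences of -0.30 and -0.01.

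Transcription factors of proteasome genes and their processing factors gave 0 calls among 8 tested genes, with a median of -0.09. Nfe2l1, which encodes the factor NRF1, was abundant, at 116.8, 109.4, 103.5 and 109.1 FPKM in KO1 to KO4, against 131.1, 124.2 and 138.9 FPKM in WT1 to WT3. The groups did not overlap, and the log2 difference was small (-0.26, SE 0.14, limma adjusted p = 0.33). Mafg, a partner of NRF1, averaged 6.33 ± 1.77 FPKM in KO and 10.6 ± 2 FPKM in WT (-0.69, limma adjusted p = 0.13), also without overlap. Ngly1, an enzyme that processes NRF1, had a log2 difference of 0.46 (0.28 without KO1) and Nfya, a subunit of NF-Y, one of -0.37 (limma adjusted p = 0.31 and 0.32). None of the 43 members or of the genes of the further lists was in the authors' deposited table of 113 genes.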

How the data were processed

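RNA sequencing of ribosome-bound RNA was analysed in 7 libraries, 4 KO and 3 WT, grouped by the sample titles. Per the labels' protocols, 1 ng of RNA was amplified with the Ovation kit and made into TruSeq libraries. Cufflinks 2.1.1, DESeq 1.10.1, TopHat and TopHat2 2.0.8 are listed in the submitters' processing notes, as is the build mm10, with no order or role. Annotation, strand handling and multiply matching reads are not given in the sources used here. FPKM per library were deposited by the authors, rounded to 1 decimal. Their second deposited table gives group mean FPKM, a ratio of the groups, the log2 of that ratio and p-values for 113 genes, and was used only to look up names. Depth was unknown, so no counting intervals were given, while the FPKM of a library added up to between 379417 and 511328.

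The 10089 rows that averaged 1 FPKM or more were fitted on log2(FPKM + 1) in R 4.3.3 by limma 3.58.1, with trended variances, two-sided, and Benjamini-Hochberg adjustment over all rows. The test was checked on simulated data. Differences are KO minus WT on that scale, which understates changes of low genes. Levels are FPKM with SD. Python 3.11.15, pandas 2.3.3 and matplotlib 3.10.9 served for summaries and plots. Coordinates, overlaps, shared 31-mers, GC content and length (longest coding transcript, 94.4% of rows matched) came from GENCODE M21, and promoters from RefSeq, both GRCm38. Genes named were S100a10, members at an adjusted or unadjusted p under 0.05, the extremes of level and difference in each role, members under the filter, and the 3 smallest p of each further list, while the other members, and Ufd1l, Adrm1, Uchl5, Rps27a, Nfe2l1 and Psmb10's ratio to Psmb7, were added after their values were seen. Alternatives changed the pseudocount, filter, normalization, variance model, GC and length trends, summing of rows and replicate block, and left out each library. Some genes of the further lists are not reported here. The members, lists and tests were chosen with earlier results of these data known.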

Additional observations from a re-analysis of the deposited data

Results flagged for a closer look

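Among the 40 tested members, 2 had a KO library whose gap to the nearest other KO value exceeded the 95% critical value of Dixon's test for 4 samples. Psmb2 stood at 195.3 FPKM in KO1, against 261.8 to 264.9 FPKM in the other KO libraries and 202.5 to 211.2 FPKM in WT. Psmf1 stood at 9.5 FPKM in KO1, with the other KO libraries at up to 16.1 FPKM and WT at 10.3 to 12.5 FPKM. Chance flags about 1 in 20 groups, and 40 were examined. Both values fell in KO1, the library with the highest sums of medium spiny neuron (273.3 FPKM) and oligodendrocyte (76.5 FPKM) markers, and the part of those cells in them was not tested.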

How the results depend on the processing

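With limma, 0 of the 40 tested members passed, and 6 had an unadjusted p under 0.05. The count was 1 (Psmd3) when only rows averaging 5 FPKM or more were tested, with median centring and with quantile normalization, 7 with array weights, and 0 to 3 with a library left out, the 3 being Psma5, Psma6 and Psmd3 without KO1. Over all rows the count was 176, and it was 100 without trend, 83 without a filter, 1689 with array weights, 18 with the replicate block and 28 (without WT2) to 331 (without KO1) with a library left out. Same-numbered libraries did not deviate together (correlations across genes of -0.22, 0.0202 and -0.259), so the replicate numbers are not taken as pairs; with the block 0 members passed, nor did Bag6 (-0.62, adjusted p = 0.23) or S100a10 (-1.22, 0.083). S100a10 also lost its call without WT1, WT2 or WT3 (adjusted p = 0.063, 0.058 and 0.051). The difference of the core and regulatory medians ran from 0.16 to 0.34 (without WT3) with a library left out, the core median from 0.10 to 0.29, the regulatory median from -0.14 to 0.05 and the median of all members from -0.02 to 0.10. Bag6 was lost without trend (0.079), without a filter (0.058) and, at a rounded 0.05, with rows of a symbol summed. With array weights Ubb, Uba1, Vcp, Ubqln1, Usp14, Mafg and Psmb10 passed too. Vcp also passed with quantile normalization (-0.77, limma adjusted p = 0.046). Psma2, Psmc3, Psmd10, Psme4, Psmg1 and Psmb9, none of them called, changed sign in at least 1 alternative. The causes of these changes were not tested. Depth was unknown, and a value under 0.05 FPKM was listed as 0.0.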
